A study of Mus musculus with 9 samples.

Results

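The trypsin-like proteases of the Prss family were described in testis RNA of mice with and without Profilin 3. The family was taken as every protein-coding gene whose symbol is Prss followed by a number, which gave 38 genes of the 38674 measured and of the 21019 that are protein-coding. The libraries came from 9 male C57BL/6 mice, namely 3 Pfn3+/+ animals (WT), 3 Pfn3+/- animals (Het) and 3 Pfn3-/- animals (KO), and were made with the QuantSeq 3′ method, which reads the end of each polyadenylated transcript. The Pfn3 alleles are frame-shifting deletions made by CRISPR/Cas9 in the whole animal, and the sources used here do not give the deletion line of the animals sequenced. The males were sexually mature and between 2 and 6 months old. Whole testis without its tunica albuginea was used, so each value is a mean over germ cells and somatic cells, and fewer cells of a type and less RNA per cell cannot be told apart.

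Most Prss proteins share the fold of trypsin, in which a histidine, an aspartate and a serine form the catalytic site. Most are secreted, held in granules or anchored to the membrane, and are made as inactive precursors that are cut to become active. In the testis many members are made mainly in germ cells, some in spermatocytes and some in spermatids, where several enter the acrosome, the vesicle that a sperm empties on its way to the egg. Others lack part of the catalytic site and are counted as pseudoproteases. A group of testis serine proteases lies in a row on mouse chromosome 9 and includes Prss46 and Prss50.

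That row holds Prss42, Prss44, Prss43, Prss45, Prss46 and Prss50, in this order and all on the plus strand, within chr9:110798166-110864629 of GRCm38, a stretch of 66.46 kb. No other protein-coding gene lies between them. Prss46 (ENSMUSG00000049719, chr9:110844506-110856522) and Prss50 (ENSMUSG00000048752, chr9:110857967-110864629) are direct neighbours with 1444 bases between them. The 250 bases before the RefSeq start (GRCm38.p6, plus strand) are printed for these 2 genes and for Prss42 at the other end of the row. Prss46 and Prss50 had the largest log2 fold changes of the family in KO against WT and in KO against Het. Of the genes printed, the main test described below called only Prss46, and only in KO against Het. Capitals mark the motif matches found in these windows, the MYB core AACGG, bound by factors such as A-MYB of spermatocytes, and the RFX site GTTGCC, each on either strand.
Prss42, chr9:110797935-110798184: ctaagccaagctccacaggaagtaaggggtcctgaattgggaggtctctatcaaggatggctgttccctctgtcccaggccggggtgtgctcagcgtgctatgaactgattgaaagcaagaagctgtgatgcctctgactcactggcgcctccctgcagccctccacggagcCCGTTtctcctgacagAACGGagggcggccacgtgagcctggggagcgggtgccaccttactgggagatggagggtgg
Prss46, chr9:110844256-110844505: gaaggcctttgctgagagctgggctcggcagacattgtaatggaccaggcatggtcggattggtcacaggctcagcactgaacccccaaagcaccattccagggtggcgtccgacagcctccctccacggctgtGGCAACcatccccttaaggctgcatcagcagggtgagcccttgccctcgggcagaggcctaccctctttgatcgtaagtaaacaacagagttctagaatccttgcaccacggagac
Prss50, chr9:110857714-110857963: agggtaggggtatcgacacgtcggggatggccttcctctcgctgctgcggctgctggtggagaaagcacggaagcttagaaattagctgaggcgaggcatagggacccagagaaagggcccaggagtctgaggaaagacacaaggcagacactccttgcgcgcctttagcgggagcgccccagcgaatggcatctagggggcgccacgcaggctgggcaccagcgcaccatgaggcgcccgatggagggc

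The Prss42 window held the MYB core at bases -62 to -58 from the start on the printed strand and at -78 to -74 on the opposite strand, and the Prss46 window held the RFX site at -116 to -111 on the opposite strand. None of the motifs searched was in the Prss50 window, nor in the one that starts 3 bases further on, nor in that of Prss45, while Prss43 and Prss44 were not in the promoter table. The search covered both strands for the MYB core, the RFX site, a short CRE (the letters TGACG, from the site of CREB and CREM), the full palindromic CRE (TGACGTCA, which contains the short one) and a TATA box (the letters TATAAA). Of the 32841 windows of all genes, 17.8% held the short CRE, 1.55% the full CRE, 14.5% the MYB core, 10.4% the RFX site and 12.4% the TATA box. Among the 35 windows of Prss genes, 9 held the short CRE, 0 the full CRE, 8 the MYB core, 3 the RFX site and 5 the TATA box. These windows belong to 28 Prss genes, of which 5 held the short CRE, 0 the full CRE, 8 the MYB core, 3 the RFX site and 5 the TATA box. The 5 with a TATA box were Prss1, Prss2, Prss3, Prss28 and Prss29, none of which had a read in any library. The GC content of the windows was 58% for Prss46, 63.6% for Prss50 and 60.4% for Prss42, against a median of 52.4% over all windows and quartiles of 45.2% and 61.2%. A match describes these letters and is not evidence of binding.

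The deposited values are read counts divided by 1 size factor per library and are called normalized counts here. Each library had 3375546 to 4287335 reads on genes, so that 3 reads, the floor used for detection, were worth 2.58 to 3.71 normalized counts. WT animal 1 stood apart from its group. Over genes with at least 200 reads summed over a pair, its Spearman correlation was 0.66 with WT animals 2 and 3, which correlated at 0.886 with each other. Het animal 1 was at 0.72 and 0.79 with Het animals 2 and 3, which were at 0.81 together. KO animal 2 was at 0.78 and 0.82 with KO animals 1 and 3, which were at 0.87 together. Many values that WT animal 1 moves by over 1.5 times or in direction are given with and without it. Pfn3, the targeted gene, was at 592, 383 and 373 normalized counts in WT animals, 136, 339 and 326 in Het animals, and 74.7, 215 and 279 in KO animals. Every KO animal was below every WT animal, but 2 KO animals were above Het animal 1, and 3′ reads outside the deleted bases would still be counted, so Pfn3 is no full check of the genotypes. Testis markers were present in every library, and the epididymal genes Lcn5 and Lcn8 and all 5 exocrine pancreas markers were at 0. The other epididymal genes listed, Crisp1 and Defb41, had few reads. Their highest values were 7.72 normalized counts for Crisp1, in WT animal 2, and 3.86 for Defb41, in WT animal 3.

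Of the 38 Prss genes, 11 had no read in any library. They include the pancreatic trypsins Prss1, Prss2 and Prss3, the implantation proteases Prss28 and Prss29, Prss34 of mast cells and basophils, Prss57 of neutrophils, and Prss22, Prss27, Prss30 and Prss32. Prss8 (prostasin), Prss16 (a thymus protease) and Prss33 did not pass 3 reads in any library. Prss12, which encodes neurotrypsin, had 1.89 to 9.90 normalized counts, and Prss36, which encodes a polyserase, had 0 to 9.67. The remaining 22 genes reached a mean of at least 10 normalized counts in at least 1 genotype, and 17 genes were above the floor in all 9 animals.

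**Figure D1:**
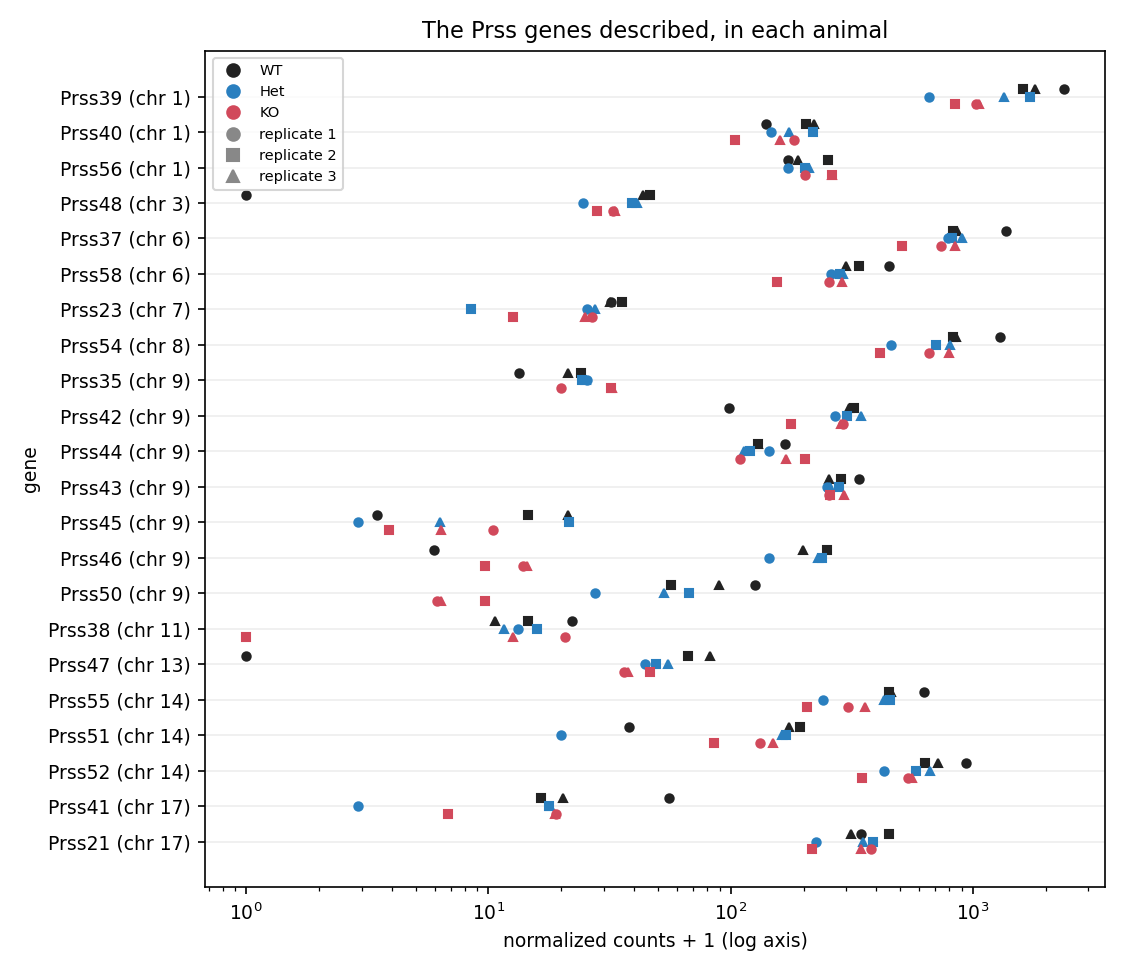
Normalized counts plus 1 on a log axis for the 22 described Prss genes, ordered by chromosome and position, with 1 point per animal, coloured by genotype and shaped by replicate number. Prss46 and Prss50 have their 3 KO points far to the left of the Het points, while WT animal 1 of Prss46 (4.95), Prss47 (0) and Prss48 (0) lies far from the other WT animals. Counts were not divided by transcript length, and positions of different genes were not compared as levels.

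Genotypes were compared pair by pair with limma on log2(normalized count + 1), fitted over all genes that reached 10 normalized counts in 3 or more of the animals compared, and a gene was called at a Benjamini-Hochberg adjusted p under 0.05 and an absolute log2 fold change above 1.5. The log2 fold changes understate changes of genes near the floor. In KO against WT, 0 of the 21 Prss genes tested were called, against 0.0352% of all 14223 genes tested (DESeq2 called 1, Prss50, and edgeR 0). In KO against Het, 1 of 21 was called, Prss46, against 0.0558% of all genes. In Het against WT, 0 of 22 were called, against 0% of all genes, and no Prss gene had an unadjusted p under 0.05, against 3.34% of all genes. DESeq2 and edgeR also called no Prss gene in Het against WT. Each of the 3 comparisons shares a group with the other 2, so they are not independent.

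Prss46, also known as TESSP6, encodes a testis serine protease. Its level was 4.95, 248 and 198 normalized counts in WT animals 1, 2 and 3, 143, 237 and 228 in Het animals, and 12.9, 8.71 and 13.4 in KO animals. All KO animals were below all Het animals and below WT animals 2 and 3, while WT animal 1 was below every KO animal. Against Het, Prss46 was lower in KO by a log2 fold change of -3.99 (SE 0.29, limma adjusted p = 0.0262), and the Het mean was 17.4 times the KO mean. Against WT the log2 fold change was -2.42 (SE 1.42, limma adjusted p = 0.637), and without WT animal 1 it was -4.16 (limma adjusted p = 0.0111), which passed the call, and the count models with all animals gave -3.69 (DESeq2 adjusted p = 0.0572) and -3.66 (edgeR adjusted p = 0.605), while the limma adjusted p was 0.661 to 0.814 without any other animal. Het against WT gave 1.58 (SE 1.43, limma adjusted p = 0.782), and -0.16 without WT animal 1, while DESeq2 gave 0.43 (adjusted p = 0.998) and edgeR 0.44 (adjusted p = 0.942). KO animal 2 was under 10, so Prss46 passed the filter in KO against Het only through its Het animals, where it was high. Its p-values there depend on that filter, and with no filter on low values the limma adjusted p was 0.0257. The call in KO against Het held in 9 of 16 other settings. It was lost in 5 of the 6 fits that left out 1 animal (all but the one without Het animal 2), where limma adjusted p-values ran from 0.0303 to 0.158 and log2 fold changes from -4.23 to -3.81.

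Prss50 encodes TSP50, which has a threonine in place of the catalytic serine. It was at 125, 56.0 and 88.8 normalized counts in WT animals, 26.5, 66.1 and 51.9 in Het animals, and 5.15, 8.71 and 5.36 in KO animals. Every KO animal was below every WT and every Het animal, and Het and WT animals overlapped. The group means were 89.9 ± 34.6 for WT, 48.1 ± 20.1 for Het and 6.41 ± 1.99 for KO (SD, n = 3 each). Neither difference passed the main test. The log2 fold change was -3.58 in KO against WT (SE 0.40, limma adjusted p = 0.102) and -2.67 in KO against Het (SE 0.44, limma adjusted p = 0.445). DESeq2 on the recovered reads called Prss50 in both, at -3.82 (adjusted p = 4.59e-08) and -2.92 (adjusted p = 0.00206), where it called 0.71% and 0.265% of all genes. The adjusted p was 0.116 and 0.423 by edgeR, and in limma fits without 1 KO animal it was 0.230 to 0.413 and 0.538 to 0.986. Het against WT gave -0.91 (SE 0.45, limma adjusted p = 0.779), and -0.54 without Het animal 1. Every KO value was under 10, so Prss50 passed the filter only through the WT or Het animals, where it was high. Its p-values above depend on that filter. With no filter on low values the limma adjusted p was 0.0796 in KO against WT and 0.317 in KO against Het. With a WT or a Het animal left out, Prss50 had too few values of 10 or more to be tested against KO.

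Within WT the 2 neighbours ordered the animals differently. WT animal 1 had the lowest Prss46 value of all 9 animals and the highest Prss50 value. The sum of Prss46 and Prss50, formed after their values were seen, was 130, 304 and 287 in WT animals, 169, 304 and 279 in Het animals, and 18.0, 17.4 and 18.8 in KO animals. On this sum, WT animal 1 was above every KO animal, as it already was for Prss50 alone (125 against 5.15 to 8.71). The sum therefore shows nothing about Prss46 in WT animal 1. How reads were divided between the 2 neighbouring loci in the authors' assembly was not tested. In the GENCODE transcripts no 50-base stretch of Prss46 or Prss50 is shared with a transcript of another gene, and neither gene overlaps another gene.

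**Figure D2:**
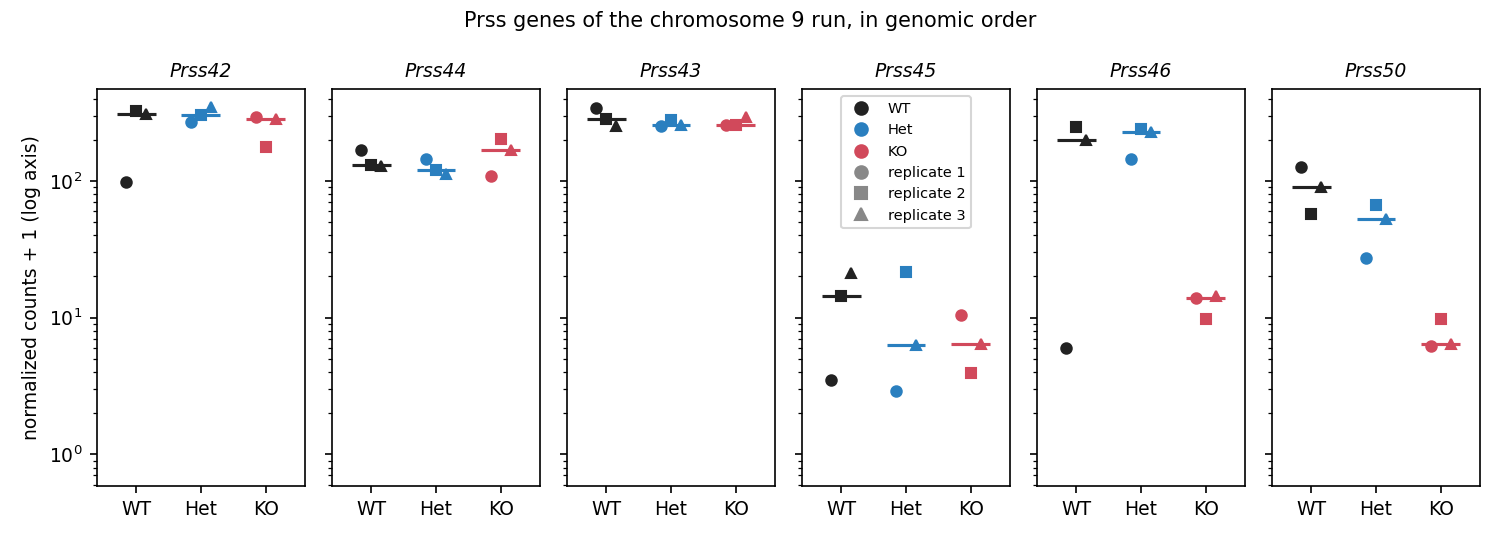
Normalized counts plus 1 on a log axis for the 6 Prss genes of the chromosome 9 row in genomic order, by genotype, with 1 point per animal and a line at the group median. Prss46 and Prss50 are at 5.15 to 13.4 in KO animals, whereas KO animals overlap WT animals for Prss42, Prss43, Prss44 and Prss45.

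The other 4 genes of the row overlapped between KO and WT. Prss42, a spermatocyte protease also known as TESSP2, was at 97.8, 322 and 306 normalized counts in WT animals, 269, 301 and 346 in Het animals, and 290, 177 and 284 in KO animals (KO against WT log2 fold change 0.20, SE 0.51, limma adjusted p = 0.885, and -0.36 without WT animal 1). For Prss43, or TESSP3, the values were 339, 284 and 253 in WT, 249, 278 and 256 in Het and 254, 255 and 294 in KO (-0.12, SE 0.20, limma adjusted p = 0.814, and -0.00 without WT animal 1). Prss44, or TESSP4, gave 167, 129 and 128 in WT, 143, 119 and 112 in Het and 108, 202 and 168 in KO (0.13, SE 0.29, limma adjusted p = 0.858, and -0.06 without KO animal 2). WT animal 1 was the lowest of the 9 animals for Prss42 and the highest for Prss43.

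Prss45, a pseudoprotease, was near the floor at 2.48, 13.5 and 20.3 normalized counts in WT, 1.89, 20.5 and 5.29 in Het and 9.45, 2.90 and 5.36 in KO, and it was not tested in either KO comparison. Together Prss42, Prss43, Prss44 and Prss45 summed to 607 to 749 normalized counts in WT, 663 to 720 in Het and 638 to 752 in KO animals. The protein-coding genes flanking the row did not pass the test in KO against WT. They are Myl3, a myosin light chain (log2 fold change -0.64, SE 0.43, limma adjusted p = 0.643, and -0.26 without WT animal 1), and Tmie, a membrane protein of inner ear hair cells, 1081 bases beyond Prss50 on the minus strand (0.25, SE 0.50, limma adjusted p = 0.846, 0.43 without WT animal 1 and -0.12 without KO animal 2).

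**Figure D3:**
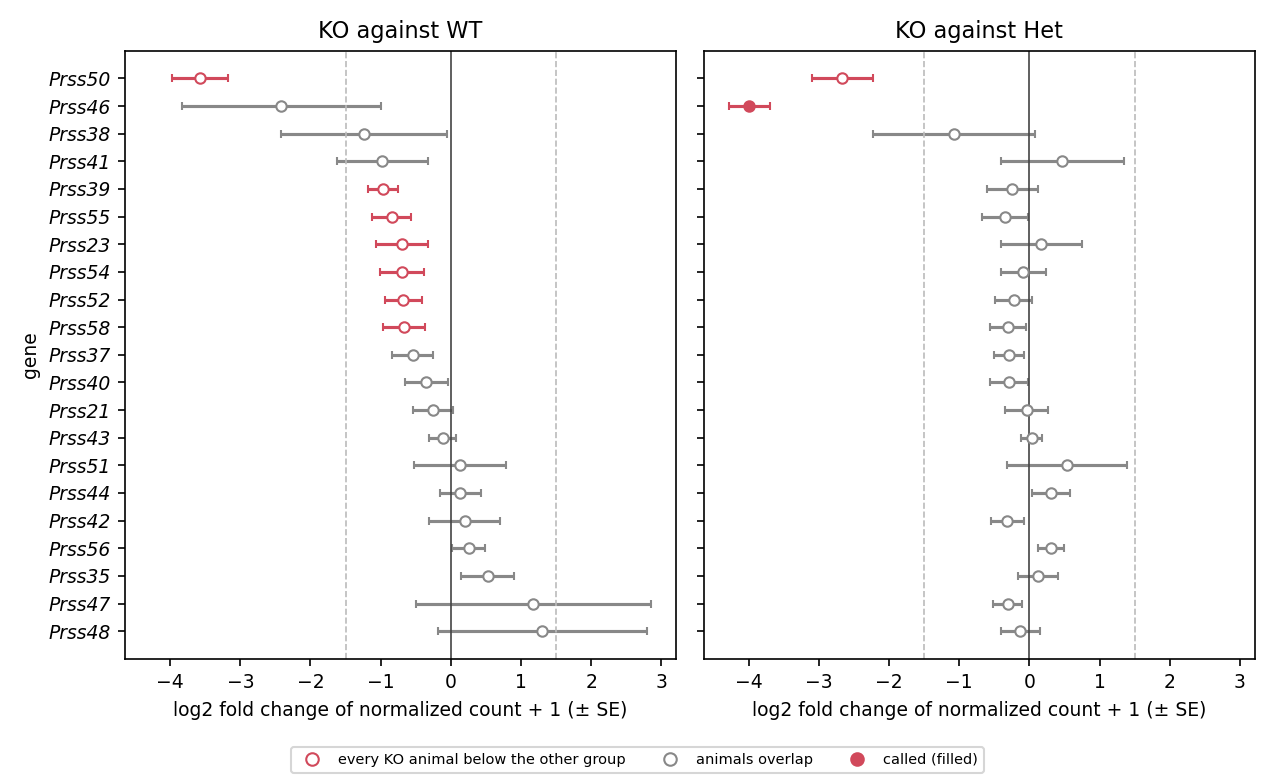
Log2 fold change of normalized count plus 1 with its SE for the 21 Prss genes tested in KO against WT, in that comparison and in KO against Het, with dashed lines at the threshold of 1.5 in either direction. Red points are genes whose KO animals were all below the other group, and the filled point, Prss46 in KO against Het (-3.99), is the call.

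Across the family, 14 of the 21 genes tested in KO against WT had a log2 fold change below 0, with a median of -0.54, beside 48.6% and a median of 0.02 over all genes. In 7 of 21 every KO animal was below every WT animal, against 10.5% of all genes, and in 0 of 21 every KO animal was above, against 9.41%. An unadjusted p under 0.05 with a lower level in KO was reached by 4 of 21, namely Prss39, Prss50, Prss52 and Prss55, against 5.03% of all genes. Of these, Prss50 passed the filter only through its WT animals. Without WT animal 1, counted after the data were seen, 13 of 21 had every KO animal below WT animals 2 and 3, against 17.5% of all genes, 0 of 21 had every KO animal above, against 14.6%, and 4 of 20 had an unadjusted p under 0.05 and a lower level in KO (Prss39, Prss46, Prss47 and Prss55), against 4.95%. Without KO animal 2 the median of the family was -0.11, still with 14 of 21 below 0, and without WT animal 1 it was -0.51 with 17 of 20 below 0. When libraries were scaled by their reads on genes alone, a setting added after the data were seen, the median over all genes moved by 0.20 to 0.22 and that of the family was -0.34. Over all settings tried, the Prss genes called in KO against WT were Prss50, by DESeq2, and Prss46, without WT animal 1.

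Prss39 encodes TESP1, a protease of the acrosome. It was at 2376, 1604 and 1799 normalized counts in WT, 658, 1717 and 1344 in Het and 1033, 840 and 1059 in KO. KO animals lay below all WT animals and overlapped Het, in which animal 1 was the lowest of all 9. KO against WT gave a log2 fold change of -0.97 (SE 0.21, unadjusted p = 0.00327, limma adjusted p = 0.522), and leaving out 1 animal moved it from -1.09 to -0.80. DESeq2 gave an adjusted p of 0.0286 for Prss39, below the fold threshold of the call, and the highest adjusted p over its settings was 0.814. Prss40, which encodes the related acrosomal protease TESP2 and lies with Prss39 on chromosome 1, was at 139, 205 and 219 in WT, 146, 218 and 174 in Het and 182, 104 and 158 in KO, with overlapping groups. Of the 50-base stretches in the last 300 bases of the Prss40 transcripts 38.8% are shared with transcripts of Cfc1 or Prss39, and Cfc1 overlaps Prss40 by 346 bases on the opposite strand, so its count is uncertain.

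Prss55 and Prss37 are both needed for sperm to pass into the oviduct and for the sperm surface protein ADAM3. Prss55 was at 625, 450 and 461 normalized counts in WT, 239, 453 and 429 in Het and 303, 205 and 358 in KO, with every KO animal below every WT animal (log2 fold change -0.84, SE 0.27, limma adjusted p = 0.610). Prss37 was at 1369, 828 and 862 in WT, 787, 819 and 902 in Het and 739, 511 and 841 in KO. KO animal 3 was above WT animal 2 for Prss37, so these groups overlapped (-0.54, SE 0.29, limma adjusted p = 0.628). The log2 fold change of Prss37 was -0.31 without WT animal 1 and -0.33 without KO animal 2. In both genes KO animal 2 had the lowest value of the KO group.

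Prss51, Prss52 and Prss55 lie within 38.32 kb of each other on chromosome 14. Prss52 was at 936, 635 and 720 normalized counts in WT, 428, 583 and 667 in Het and 538, 347 and 562 in KO (log2 fold change -0.67, SE 0.27, limma adjusted p = 0.610). Prss51 was at 37.1, 192 and 173 in WT, 18.9, 169 and 162 in Het and 131, 84.2 and 148 in KO. Every KO animal was below every WT animal for Prss52, while for Prss51 the groups overlapped and WT animal 1 and Het animal 1 stood far below the others. Prss51 overlaps Prss55 by 3929 bases on the opposite strand, and Prss52 overlaps an antisense gene, so their reads are uncertain where the counting, whose strand setting is not given in the sources used here, did not use strand.

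The pseudoprotease gene Prss54 was at 1294, 828 and 854 normalized counts in WT, 458, 704 and 803 in Het and 658, 412 and 798 in KO. KO animals were below all WT animals by a log2 fold change of -0.69 (SE 0.32, limma adjusted p = 0.612). Prss58 was at 451, 337 and 298 in WT, 260, 283 and 289 in Het and 253, 155 and 286 in KO (-0.67, SE 0.30, limma adjusted p = 0.612). For Prss54 the nearest KO and WT animals, at 798 and 828, were close, and so were those of Prss58, at 286 and 298. Without KO animal 2 the log2 fold changes in KO against WT were -0.42 for Prss54, -0.40 for Prss58, -0.45 for Prss52 and -0.62 for Prss55.

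Prss23, a secreted protease made in many tissues, was at 31.0, 34.7 and 30.9 normalized counts in WT, 24.6, 7.45 and 26.5 in Het and 25.8, 11.6 and 24.1 in KO. All Het and all KO animals were below all WT animals, at log2 fold changes of -0.87 (SE 0.51, limma adjusted p = 0.779) and -0.70 (SE 0.37, limma adjusted p = 0.620). They were -0.32 without Het animal 2 and -0.35 without KO animal 2. Its antisense gene Prss23os shares 51.2% of the 50-base stretches in the last 300 bases of the Prss23 transcripts, which leaves its count uncertain. Prss35, another pseudoprotease gene, was at 12.4, 23.2 and 20.3 in WT, 24.6, 23.3 and 24.3 in Het and 18.9, 31.0 and 31.3 in KO. Het animals were above all WT animals by 0.40 on the log2 scale (SE 0.34, limma adjusted p = 0.779), which was 0.14 without WT animal 1, the lowest of its group, and KO animals overlapped WT.

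In Het against WT, 3 of 22 Prss genes had every Het animal below every WT animal, against 6.49% of all genes, and 1 of 22 had every Het animal above, against 6.76%. The 3 were Prss23, Prss54 (log2 fold change -0.61, SE 0.30, limma adjusted p = 0.779) and Prss58 (-0.36, SE 0.22, limma adjusted p = 0.779), which were -0.40 and -0.19 without WT animal 1, and the one above was Prss35. In KO against Het, 2 of 21, Prss46 and Prss50, had every KO animal below every Het animal, against 4.9% of all genes. The same 2 had an unadjusted p under 0.05 with a lower level in KO, against 1.82% of all genes. Both passed the filter only through their Het animals, where they were high, so these counts describe the 2 genes and are not support. The median log2 fold change of the family was -0.23 in Het against WT and -0.22 in KO against Het, beside 0.01 and -0.00 over all genes. Without KO animal 2 the median in KO against Het was -0.00 with 11 of 21 below 0, without Het animal 3 it was -0.04 with 10 of 20, and without Het animal 2 it was -0.08 with 12 of 20. In Het against WT it was -0.13 without Het animal 1, with 12 of 22 below 0, compared with 17 of 22 with that animal.

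The other described genes overlapped between genotypes in every comparison. Prss21, which encodes testisin, a membrane-anchored protease of sperm, was at 313 to 449 normalized counts in WT, 225 to 386 in Het and 216 to 379 in KO. Prss56, best known from the eye, was at 172 to 252, 172 to 210 and 203 to 262. Prss41, or TESSP1, and Prss38 were low, at 15.4 to 54.5 and 9.66 to 21.05 in WT, 1.89 to 16.9 and 10.6 to 14.9 in Het, and 5.80 to 18.0 and 0 to 19.8 in KO.

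Prss47 and Prss48 had no read in WT animal 1, which again stood apart. KO against WT gave log2 fold changes of 1.18 and 1.31, which turned to -0.89 and -0.52 without it, and that of Prss51 went from 0.13 to -0.62. In WT animals 2 and 3 Prss47 was at 65.6 and 81.1 normalized counts, in Het at 43.5 to 54.0 and in KO at 35.2 to 45.5. Prss48 was at 45.3 and 42.5 in these WT animals, at 23.6 to 40.2 in Het and at 27.1 to 32.2 in KO, and all of its 8682 bases lie within Sh3d19 on the opposite strand. Over the 22 described genes, WT animal 1 had the highest value of the 9 animals for 10 and the lowest for 5, Het animal 1 the lowest for 6 and KO animal 2 the lowest for 8.

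Summed over all 38 genes, the Prss family came to 8609, 7043 and 7094 normalized counts in WT animals, 4361, 6717 and 6504 in Het animals, and 5263, 3923 and 5755 in KO animals. That is 0.186% ± 0.018 of a library for WT, 0.160% ± 0.031 for Het and 0.140% ± 0.019 for KO (SD, n = 3 each). All KO animals lay below all WT animals, and Het animal 1 lay among the KO animals. The 6 round spermatid markers Acrv1, Tssk1, Tssk2, Spaca1, Catsper3 and Lyzl4 summed to 6485 to 8647 in WT, 4886 to 6548 in Het and 3040 to 5287 in KO. In KO against WT, 5 of 6 had a lower mean level and 0 were called, with none of them at 0 in all animals.

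The transition protein and protamine genes Tnp1, Tnp2, Prm1 and Prm2 of elongating spermatids summed to 233289 to 249362 normalized counts in WT, 179063 to 214894 in Het and 123388 to 199672 in KO, with 4 of 4 lower in KO and 0 called. KO animal 2 and Het animal 1, the lowest of their groups for the Prss family, were also the lowest of their groups for both spermatid lists. The spermatocyte markers went the other way, at 4503 to 5401 in WT, 4497 to 6779 in Het and 6075 to 6996 in KO. In KO against WT, 6 of 6 tested were higher in KO and 0 were called. Sertoli cell markers were at 586 to 682 in WT, 878 to 952 in Het and 819 to 1457 in KO, with Amh at 0, so Het animals were above WT animals as well. What part cell composition had in the Prss values was not tested. In KO animals 1, 2 and 3 the values rested on 15, 9 and 15 reads for Prss46 and on 6, 9 and 6 reads for Prss50. These are too few reads to order the KO animals by either gene.

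**Figure D4:**
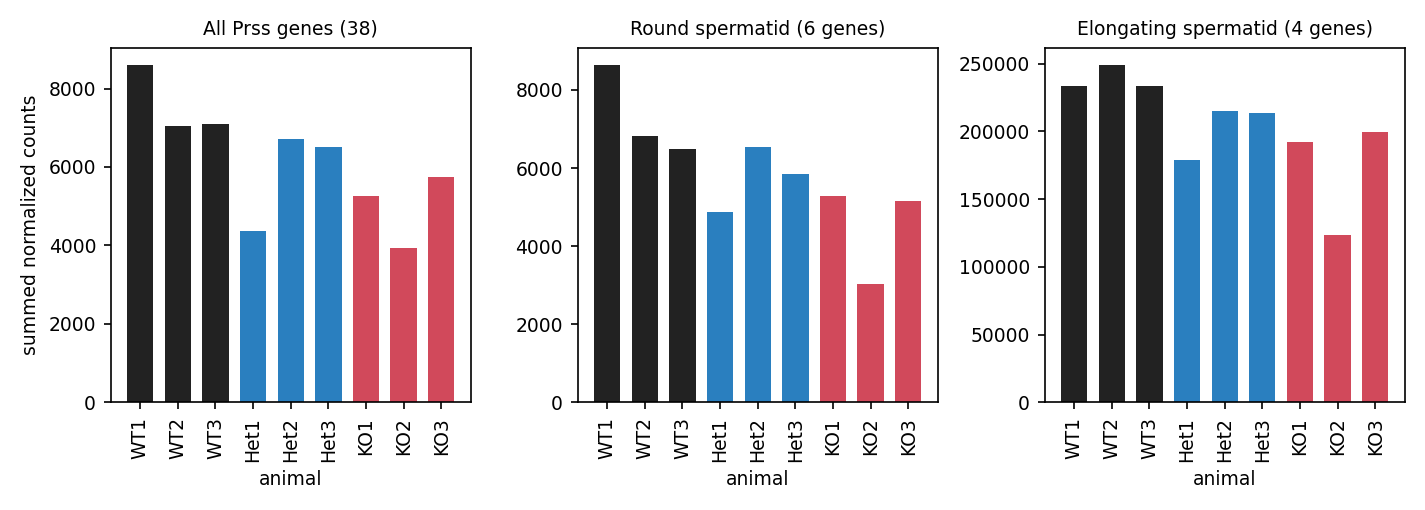
Summed normalized counts in each of the 9 animals for all 38 Prss genes, for the 6 round spermatid markers and for the 4 elongating spermatid markers, as bars from 0 coloured by genotype. In each panel Het animal 1 and KO animal 2 are the lowest of their genotype (4361 and 3923 for the Prss genes), and all KO animals are below all WT animals.

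Related proteases, their inhibitors and partners were read from lists beside the family. Of 73 other trypsin-fold protease genes, 15 were tested in KO against WT, 0 were called and 0 had an unadjusted p under 0.05, with 8 above and 7 below 0 and a median log2 fold change of 0.07. Among them Acr, the gene of acrosin, the main protease of the acrosome, was at 375, 381 and 533 normalized counts in WT, 493, 591 and 575 in Het and 310, 509 and 416 in KO (-0.07, SE 0.26, limma adjusted p = 0.924, and -0.24 to 0.12 without 1 animal). Of 97 serine protease inhibitor genes, which include the serpins and the Spink family, 24 were tested, 0 were called and 0 had an unadjusted p under 0.05, with 12 above and 12 below 0 and a median log2 fold change of 0.00.

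Of the 14 genes of the ADAM3 assembly measured, which encode ADAM proteins of sperm, chaperones and other proteins of sperm or of its maturation, 13 were tested in KO against WT and 0 were called. Unadjusted p-values under 0.05 were reached by Calr3 and Pdilt, chaperones of the spermatid endoplasmic reticulum. Calr3 was at 917, 149 and 182 normalized counts in WT, 25.5, 156 and 47.6 in Het and 86.7, 31.9 and 62.6 in KO (log2 fold change -2.37, SE 0.76, limma adjusted p = 0.610, and -1.54 without WT animal 1). Pdilt was at 571, 396 and 463 in WT, 251, 407 and 357 in Het and 334, 142 and 295 in KO (-0.96, SE 0.37, limma adjusted p = 0.610, and -0.58 without KO animal 2). KO animals were below all WT animals for both, and WT animal 1 was the highest of the 9. Adam3 itself had a log2 fold change of -0.30 (SE 0.20, limma adjusted p = 0.643), -0.15 without KO animal 2.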

How the data were processed

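Testis RNA of 9 mice was measured, 3 per genotype, grouped by the genotype label. The authors trimmed the reads (Trim Galore 0.4.5), aligned them to GRCm38 (HISAT2 2.1), counted them on assembled genes (StringTie 1.3.3) and deposited the counts divided by 1 DESeq2 size factor per library, a signal called normalized counts here. Whole counts, called reads here, were recovered for 100% of values within 0.01 of a whole number. Pseudogenes were removed by the authors. The described Prss genes are all counted on loci of the assembly, not on annotated genes, so locus borders can move reads between neighbours.

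Pairs of genotypes were compared with limma 3.58.1 on log2(value + 1) over genes with at least 10 in at least 3 animals, with Benjamini-Hochberg adjustment. DESeq2 1.42.0 and edgeR 4.0.16 on the recovered reads, pseudocounts of 0.5 and 5, other filters, TMM factors, all 9 animals in 1 fit, a replicate block and leaving out each animal were alternatives, and scaling by reads per library and counts without WT animal 1 were added after the data were seen. The scripts were tested on simulated data. Promoters came from RefSeq, transcripts from GENCODE. The labels do not say that animals come from separate litters, and p-values measure the spread between these animals. Replicate pairs differed by more than 2 Poisson SD in 39.4% to 76.6% of genes, so none was taken as a repeat. The SEs and SDs measure spread between animals, and the floor covers counting error only.

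The Prss genes and the lists were chosen with earlier results of these data known. Described by values were Prss genes with a mean of at least 10 in a genotype. Fold changes are given for Prss46, Prss50 and every Prss gene that was called, had an unadjusted p under 0.05 or did not overlap between groups, for the genes around the chromosome 9 row, and for the members of the other lists with an unadjusted p under 0.05 in KO against WT. Fold changes of Prss37, Prss47, Prss48, Prss51, of other Prss genes of the row, of Acr and Adam3 were added after their values were seen.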

Additional observations from a re-analysis of the deposited data

How the results depend on the processing

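In KO against WT the main test called 0 Prss genes and 5 genes in all. DESeq2 called 1 and 101, all 9 animals in 1 fit called 3 genes in all, and leaving out 1 animal gave 0 to 1 Prss genes and 0 to 49 genes in all, with 49 and the Prss46 call without WT animal 1. In KO against Het, where the main test called 1 Prss gene and 8 genes in all, DESeq2 called 2 and 38, the filter at 30 called 5 in all, all 9 animals in 1 fit called 0 and 4, and leaving out 1 animal gave 0 to 1 and 0 to 39, with 39 without Het animal 2. In Het against WT, with 0 calls in the main test (475 genes at an unadjusted p under 0.05), DESeq2 called 31 genes in all, a pseudocount of 5 called 2, no filter 3, the filter at 30 1, TMM factors 1, all 9 animals in 1 fit 3, and leaving out 1 animal 0 to 3. None of these was a Prss gene. The Het against WT log2 fold change of Prss46 was 1.58 and reversed to -0.16 without WT animal 1, the lowest of its values without 1 animal, which went up to 2.53. Where no value above shows it, the cause was not tested.

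Same-numbered animals did not deviate together in KO against WT (correlations of -0.12 to -0.03) or in KO against Het (-0.14 to 0.07). In Het against WT the correlation was 0.17 for number 1, 0.21 for number 2 and -0.03 for number 3. Differently numbered animals there ran from -0.25 to 0.20. The main test did not take the numbers as pairs. With the replicate block 0 genes in all and 0 Prss genes were called in each of the 3 comparisons, and Prss46 in KO against Het had an adjusted p of 0.645. Counts near the floor of 3 reads, as for Prss45 and for Prss50 in KO, are limited by depth.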
